A study of Mus musculus with 2 samples.

Results

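*Hs3st1*, *Stab2*, *Gm20186* and *Phlda1* are 4 of the 31053 genes counted in kidney cells of MRL-*lpr* mice. They were chosen by their measured level, because they led group 2 innate lymphoid cells (ILC2s) in these same libraries and are less often named in ILC2s than the cytokine genes. Their level in ILC2s over other cells is therefore a description and is given with no test. ILC2s are tissue-resident lymphocytes that lack antigen receptors, depend on GATA3 and respond to IL-33 through ST2, the product of *Il1rl1*. They are known for IL-5, IL-13 and amphiregulin, and in the kidney they sit mostly around vessels.

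*Hs3st1* encodes heparan sulfate 3-O-sulfotransferase 1, the Golgi enzyme that completes the antithrombin-binding site of heparan sulfate. *Stab2* encodes stabilin-2, a large scavenger receptor best known from sinusoidal endothelium, where it clears hyaluronan and other ligands. *Phlda1* encodes a small pleckstrin homology-like protein that is induced by growth factor and antigen receptor signals. *Gm20186* is annotated as a long intergenic noncoding RNA, and no role is given for it here.

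The data are 2 single-cell RNA-seq libraries, 1 from pooled kidneys of young MRL-*lpr* mice and 1 from pooled kidneys of old ones. These mice, of the strain MRL/MpJ-*Fas* lpr/J, carry a mutation of *Fas* and develop lupus-like nephritis with age, and both groups share the mutation and the strain. Young mice were 5 to 8 weeks old and old mice were over 16 weeks old. Cells passed a density gradient, magnetic enrichment of innate lymphoid cells and a live sort, so the shares of cell classes are not frequencies in the kidney. The paper treats the young mice as controls or mildly diseased and the old mice as severely diseased. Age and disease stage go together in these 2 libraries and cannot be told apart.

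Cells were kept if 200 or more genes were detected in them and if no more than 20% of their UMIs (unique molecular identifiers, each 1 captured transcript) were mitochondrial. This left 11429 young cells with 145647185 UMIs and a median of 7881 UMIs a cell, and 10232 old cells with 119218130 UMIs and a median of 6933. The libraries shared 26 cell barcodes. With 1 library per age there was no replicate and no test was made. All intervals are exact 95% intervals (Poisson for levels, Clopper-Pearson for shares, binomial for ratios) and cover counting error only.

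Cells were put in classes by UMIs of marker genes, and cells that met more than 1 gate (487 young and 504 old) or none (2196 and 1318) were left out of the classes. The ILC2 gate asked for UMIs of 2 or more of the genes *Gata3*, *Il1rl1*, *Il2ra* and *Il17rb* in a cell without UMIs of the CD3 genes (*Cd3d*, *Cd3e*, *Cd3g*). There were 1348 of them in the young library and 307 in the old one, with median depths of 5150 and 5513 UMIs. Of these, 303 and 60 cells stood just inside the gate with 2 of its genes, while 279 young and 162 old cells with no class stood just outside it with 1.

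Genes that the gate did not use were then read in the ILC2-gated cells. *Rora*, a transcription factor needed for ILC2 development, reached 1397 CPM (counts of a gene per 1000000 UMIs of the cells) in the young ILC2-gated cells, and the old ones had 1537 CPM. Of 8 type 2 effector genes, 7 were detected in both libraries, among them *Areg* at 1179 and 1997 CPM and *Calca* at 494 and 676 CPM, while *Il9* had no UMI. The 6 proximal tubule markers summed to 686 CPM in young ILC2-gated cells, and to 219 CPM in old, led by *Miox*, against 13469 and 12000 CPM in proximal tubule cells. The 6 T-cell markers summed to 512 and 583 CPM, led by *Trbc2*, with *Cd3d*, *Cd3e* and *Cd3g* at 0 by the gate. Single markers listed for other classes were seen too. Among them were *Ccr9* (168 and 357 CPM), *Ikzf2* (155 and 175 CPM), *Ccr2* (118 and 85.2 CPM) and *Cpa3* (112 and 25.2 CPM).

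The methods name female mice, but both libraries held cells of both sexes. Among ILC2-gated cells, 51.3% (young) and 55.7% (old) carried a UMI of *Ddx3y*, *Eif2s3y*, *Kdm5d* or *Uty*, all Y-linked, and none of *Xist*, which is transcribed from the inactive X chromosome. A further 23.4% and 25.1% carried *Xist* and no Y-linked UMI. The age comparison is therefore also given for each of these sets of cells.

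*Hs3st1* had 4581 UMIs in young ILC2-gated cells, or 609 CPM (592 to 627), and in the old it had 1143 UMIs, or 686 CPM (647 to 727). In proximal tubule cells, which should lack it, it stood at 1.20 CPM in the young library and at 0.173 CPM in the old. Away from ILC2s it was seen in B cells, at 52.7 CPM (41.5 to 65.9) in young and 106 CPM (88.8 to 125) in old cells. Plasmacytoid dendritic cells, of which there were 38 young and 30 old, had 142 CPM (103 to 191) and 170 CPM (127 to 223). Young coreceptor-negative T cells had 124 CPM (103 to 148) and young endothelial cells 43.6 CPM (33.8 to 55.4). The 18 young and 10 old basophils or mast cells had 75.2 CPM (30.2 to 155) and 122 CPM (58.4 to 224). No UMI of it was found in monocytes or in NK or ILC1 cells of either library; in the latter 3 counts would be 6.40 CPM (young) and 2.63 CPM (old).

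*Stab2* reached 662 CPM (644 to 681) in young ILC2-gated cells from 4980 UMIs, and 417 CPM (387 to 449) in old ones from 695 UMIs. Outside ILC2s the young library had it in coreceptor-negative T cells at 98.9 CPM (80.0 to 121) and in γδ T cells at 63.2 CPM (39.6 to 95.7), which overlapped, and it was close to absent in the old library. The 22 UMIs in these young γδ T cells lay in 6 of the 58 cells. Of these UMIs, 21 came from within the set of 7 cells that had UMIs of at least 2 ILC2 gate genes. The other 51 cells had 3.38 CPM (0.0855 to 18.8). CD8 T cells came next in the old library with 3.75 CPM (2.53 to 5.36), and the intervals of γδ T, coreceptor-negative T, macrophage and CD4 T cells overlapped that interval. Only 7 of these CD8 T cells held a *Stab2* UMI. Of the 30 UMIs, 28 came from within the set of 18 cells that had UMIs of at least 2 ILC2 gate genes. The remaining 1097 cells had 0.258 CPM (0.0313 to 0.934). Endothelial cells, the class in which stabilin-2 is usually described, had 5.86 CPM (2.68 to 11.1) in the young library, from 9 UMIs in 277 cells. The old library had only 16 endothelial cells. In ILC2-gated cells the 6 endothelial markers summed to 32.6 CPM (young) and 45.6 CPM (old), led by *Pecam1*, which leukocytes also express, and *Kdr*, *Cdh5*, *Emcn* and *Flt1* were at 0 in the old cells. The 5 lymphatic or sinusoidal markers summed to 0.931 and 0.600 CPM.

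*Gm20186* stood at 1229 CPM (1204 to 1255) in young ILC2-gated cells and 1391 CPM (1335 to 1449) when old. Its level was closest to that of ILC2s in basophils or mast cells, with 838 CPM (662 to 1046) in the young library and 316 CPM (207 to 464) in the old. These were only 18 and 10 cells, too few for the ranking of classes, which starts at 50 cells. T cells followed. In the young library coreceptor-negative T cells had 326 CPM (291 to 364), γδ T cells 213 CPM (167 to 267) and CD4 T cells 156 CPM (124 to 194), the latter 2 with overlapping intervals. In the old library γδ T cells had 138 CPM (110.0 to 172), regulatory T cells 130.1 CPM (107 to 157) and CD4 T cells 103 CPM (95.7 to 112), 3 classes whose intervals overlapped. In NK or ILC1 cells the level was 76.8 CPM (young) and 78.1 CPM (old). B cells, neutrophils, macrophages and monocytes stayed between 6.78 and 24.6 CPM in both libraries, and proximal tubule cells had 3.92 and 1.73 CPM.

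*Phlda1* reached 1190 CPM (1165 to 1215) in young ILC2-gated cells and 1108 CPM (1058 to 1160) in those of old mice. UMIs of it were also found in every other class of at least 50 cells in both libraries. Young coreceptor-negative T cells followed with 238 CPM (208 to 271). Young macrophages had 159 CPM (122 to 203) and young endothelial cells 148 CPM (129 to 168), which overlapped. In the old library macrophages were lower, at 44.3 CPM (32.5 to 58.9), and coreceptor-negative T cells came after ILC2s with 130.1 CPM (122 to 139). Regulatory T cells, at 119 CPM (97.1 to 145), overlapped these. The background in proximal tubule cells was 5.72 and 3.92 CPM.

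**Figure D1:**
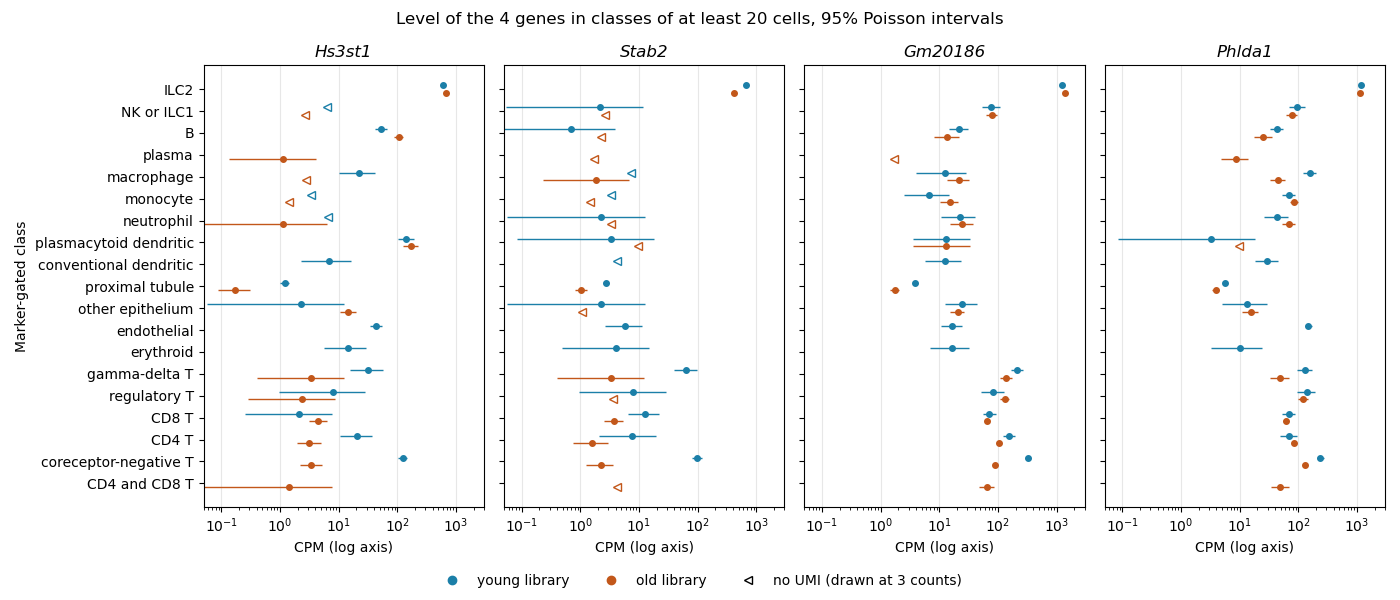
Level of each gene in CPM (log axis) in every marker-gated class of at least 20 cells, young library in blue and old in orange, with 95% Poisson intervals cut at the left edge; open triangles mark classes with no UMI, drawn at the value of 3 counts. ILC2-gated cells stood highest for all 4 genes in both libraries, with *Stab2* at 417 CPM in old ILC2-gated cells and at most 3.75 CPM in the other old classes of at least 50 cells.

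Among classes of at least 50 cells (13 in the young and 14 in the old library), the ratio of ILC2-gated cells to the next class was larger in the old library for each gene, but this order depended on the classes. With classes taken from clusters the young ratio was the larger, with overlapping intervals for *Hs3st1*, at log2 ratios (young and old) of 2.25 and 2.17 for *Hs3st1*, 5.11 and 4.21 for *Stab2*, 4.07 and 3.27 for *Gm20186*, and 3.41 and 2.79 for *Phlda1*. The sets of classes are not alike there, since no young cluster took a T-cell class (581 gated cells, led by 148 CD8 T cells, stayed in a cluster without one), whereas old clusters took the CD4, CD8 and coreceptor-negative T classes. The marker-gated values follow. For *Stab2* the log2 ratio was 2.74 (2.45 to 3.05) over young coreceptor-negative T cells and 6.80 (6.27 to 7.38) over old CD8 T cells, the latter a 111-fold difference. The 4.21 with classes from clusters was over a cluster of 401 old cells of which 176 were gated as NK or ILC1 and 10 as ILC2, and those 176 cells held no *Stab2* UMI. For *Hs3st1* it was 2.30 (2.04 to 2.57) over coreceptor-negative T cells and 2.70 (2.44 to 2.96) over B cells, and the 2 intervals overlapped. For *Gm20186* it was 1.92 (1.75 to 2.08) over coreceptor-negative T cells and 3.33 (3.01 to 3.67) over γδ T cells. For *Phlda1* it was 2.32 (2.13 to 2.51) and 3.09 (2.97 to 3.21), both over coreceptor-negative T cells. All 4 genes stood at least 2-fold above every other such class in both libraries, where 1.5% of 7597 genes did so in the young and 2.08% in the old one. The genes were selected on this contrast, so nothing is read from that count. By this ratio, of 7597 genes, *Stab2* ranked 4 (young) and 3 (old), *Hs3st1* 19 and 39, *Gm20186* 34 and 23, and *Phlda1* 18 and 27. These ranks are on the same contrast and are a description only.

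The next class in the young library held cells with genes of the ILC2 gate. Of 196 young coreceptor-negative T cells, which carried at least 2 of the CD3 genes but no *Cd4*, *Cd8a* or *Cd8b1*, 40 also had UMIs of at least 2 of the 4 ILC2 gate genes. These 40 cells held 97.5% of the class's *Hs3st1* UMIs, 89.5% of its *Stab2* UMIs, 83.4% of its *Phlda1* UMIs and 80.2% of its *Gm20186* UMIs. In the remaining 156 cells *Hs3st1* fell to 4.26 CPM (0.879 to 12.5), *Stab2* to 14.2 CPM (6.82 to 26.1), *Gm20186* to 88.1 CPM (67.6 to 113) and *Phlda1* to 54.0 CPM (38.2 to 74.1). Old coreceptor-negative T cells had such genes in 20 of 1519 cells. Leaving these out moved *Hs3st1* there from 3.41 to 0.755 CPM and *Stab2* from 2.23 to 0.453 CPM, while *Gm20186* went from 88.6 to 87.5 CPM and *Phlda1* from 130.1 to 129 CPM. With T cells of this kind left out of every T class, a setting chosen after seeing the data, the log2 ratio (young and old) was 5.54 and 7.79 for *Stab2*, 3.53 and 2.70 for *Hs3st1*, 3.40 and 3.38 for *Gm20186*, and 2.90 and 3.07 for *Phlda1*. The ratio was then larger in the young library for *Hs3st1*, and the young and old intervals overlapped for *Stab2*, *Gm20186* and *Phlda1*. The T cells left out included 13 of 38 young and 28 of 122 old regulatory T cells. What the cells left out are, for example T cells with ILC2 genes or droplets with a T cell and an ILC2, was not tested.

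Most UMIs of the 4 genes in the young library lay in ILC2-gated cells, which made up 11.8% of its cells and 5.16% of its UMIs. Their share was 65.6% for *Hs3st1*, 69.2% for *Stab2*, 65.9% for *Gm20186* and 65.4% for *Phlda1*. In the same library cells that met no gate held between 15.0% and 18.4%, and cells that met several between 8.37% and 9.06%. In the old library ILC2-gated cells were 3.0% of cells and still held 64.4% of *Stab2* and 58.1% of *Hs3st1* UMIs. The shares of *Gm20186* (40.6%) and *Phlda1* (32.3%) were smaller there. T cells were far more numerous in the old library, with 1115 CD8 and 1070 CD4 T cells against 161 and 102 in the young one.

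Single cells were then compared at equal depth, with every cell thinned to 1000 UMIs and 17 young and 5 old shallower ILC2-gated cells left out. At this depth *Phlda1* was found in 58.0% of ILC2-gated cells when young and in 52.6% when old, *Gm20186* in 55.5% and 56.3%, *Hs3st1* in 43.3% and 40.4%, and *Stab2* in 42.9% and 30.5%. Without thinning these shares were 88.3% and 82.4%, 80.3% and 84.0%, 80.3% and 75.9%, and 83.1% and 66.4%. In thinned proximal tubule cells, whose median depths were 16035 and 16501 UMIs before thinning, no member passed 0.557% in either library.

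At the same depth 3 or 4 of the genes were found together in 32.3% (29.8 to 34.9) of young ILC2-gated cells and in 29.1% (24.1 to 34.6) of old ones. Among the other classes of at least 50 cells the share was highest in young coreceptor-negative T cells, with 3.12% (1.16 to 6.68), and in the old library 1 of 1064 CD4 T cells and 1 of 1492 coreceptor-negative T cells had so many. Cells that met no gate had 6.30% (young) and 1.55% (old), and those that met several had 3.08% and 0 of 504. None of the 4 was seen in 6.99% of young and 12.9% of old thinned ILC2-gated cells, and in 98.7% and 99.6% of proximal tubule cells.

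Counts per cell were spread widely for each gene. In young ILC2-gated cells the median was 4 UMIs of *Gm20186* with quartiles of 1 and 10 and a highest value of 58, and the variance was 9.82 times the mean. *Phlda1* had a median of 4, a highest value of 59 and a variance of 7.44 times the mean. *Hs3st1* and *Stab2* each had a median of 3 UMIs, with variances of 3.22 and 3.62 times their means. In the old library the variances were 4.28 (*Hs3st1*), 3.48 (*Stab2*), 8.47 (*Gm20186*) and 8.43 (*Phlda1*) times the mean, and *Stab2* had the largest share of cells with no UMI, 33.6%. Depth differed between cells and adds to the variance, and this ratio also grows with the mean, so it does not rank the genes by evenness.

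Within the ILC2 gate the genes were compared between cells with and without UMIs of effector genes. Young cells with a UMI of *Il5* or *Il13*, the type 2 cytokine genes, numbered 365 and had 782 CPM of *Stab2* against 608 CPM in the 983 cells without. The same split in the old library gave 569 CPM in 51 cells and 383 CPM in 256 cells. *Hs3st1* was also higher in the cells with such a UMI, at 662 against 585 CPM (young) and 786 against 663 CPM (old), the old values with overlapping intervals. *Phlda1* had 1149 against 1208 CPM (young) and 1246 against 1077 CPM (old), with overlapping intervals in each library. *Gm20186* was lower in the old cells with such a UMI, at 1152 (1035 to 1278) against 1446 CPM (1383 to 1511), and the young values of 1192 and 1246 CPM had overlapping intervals. Cells with and without an *Areg* UMI were compared in the same way. For *Gm20186* the values were 1339 against 1047 CPM (young) and 1483 against 1060.4 CPM (old). For *Phlda1* they were 1194 against 1183 CPM and 1187 against 823 CPM, for *Hs3st1* 636 against 565 CPM and 703 against 627 CPM, and for *Stab2* 671 against 648 CPM and 439 against 339.7 CPM. The intervals overlapped for young *Phlda1*, young *Stab2*, old *Hs3st1* and, narrowly, old *Stab2*. Cells with these UMIs were also deeper, with medians of 5838 against 4898 UMIs for the young *Il5* or *Il13* split. *Stab2* itself differed with depth, at 660.1, 580 and 750.4 CPM in young ILC2-gated cells with median depths of 1882, 4688 and 7083 UMIs, and at 518, 316 and 498 CPM in old ones with medians of 2197, 4915 and 6933. Over the same depths *Hs3st1* had 740, 697 and 507 CPM (young) and 728, 712 and 659 CPM (old). *Phlda1* had 1400, 1429 and 921 CPM (young) and 1234.5, 1250.5 and 969 CPM (old). *Gm20186* had 995, 1400 and 1062 CPM (young) and 1074, 1465 and 1357 CPM (old). The part of depth in these splits was not tested. The 25 young ILC2-gated cells with at least 2 cycling genes had 171 CPM of *Hs3st1*, 383 CPM of *Gm20186* and 381 CPM of *Phlda1*, all below the remaining cells, and 696 CPM of *Stab2*, close to their 660.4 CPM. These 25 cells had a median of 14439 UMIs, and no old cell met that rule.

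Between the ages, *Stab2* differed most of the 4 genes when all ILC2-gated cells were taken. It was lower in old ILC2-gated cells, with a log2 ratio of old over young of -0.67 (-0.78 to -0.55), and 7.65% of the 7597 genes had a lower ratio. *Hs3st1* and *Gm20186* were slightly higher in old cells, at 0.17 (0.08 to 0.27) and 0.18 (0.11 to 0.24), and *Phlda1* was slightly lower, at -0.10 (-0.18 to -0.03). The intervals leave out the spread between cells, so the direction of these small ratios is uncertain. With classes from clusters, *Hs3st1* was at 0.0287 (-0.0555 to 0.112) and *Gm20186* turned to -0.0327 (-0.0938 to 0.0280), both with intervals that include 0. With ILC2-gated cells that met another gate kept, chosen after seeing the data, *Hs3st1* was at 0.0874 (-0.0047 to 0.179), which includes 0 as well. The median of all 7597 genes was -0.04. None of the 4 passed 2-fold in either direction, a size that 1.59% of genes reached upward and 4.01% downward. Of the 4 gate genes, *Il1rl1* was at 0.63 (0.54 to 0.73) and *Gata3* at 0.51 (0.44 to 0.58), while *Il17rb* at -0.06 (-0.25 to 0.14) and *Il2ra* at 0.09 (-0.05 to 0.22) had intervals that include 0. The 6 proximal tubule markers were also lower in the old ILC2-gated cells, and neither their source in these cells nor their part in these ratios was tested.

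The age ratios of *Hs3st1* and *Phlda1* had opposite signs in cells of each sex, while those of *Stab2* and *Gm20186* had the same sign in both. No difference between the sexes was tested. The *Phlda1* ratio in cells with Y-linked UMIs was small, at 0.10 (0.01 to 0.19). Its interval leaves out the spread between cells, so that sign is uncertain. In cells with *Xist* and no Y-linked UMI (315 young and 77 old), *Phlda1* went from 862 CPM (821 to 905) to 458 CPM (397 to 525), and *Hs3st1* from 670 CPM (633 to 707) to 456 CPM (395 to 523). In cells with a Y-linked UMI and no *Xist* (691 young and 171 old), *Phlda1* was 1281 CPM (1246 to 1316) and 1371 CPM (1298 to 1448), and *Hs3st1* was 579 CPM (555 to 603) and 792 CPM (736 to 850.1). *Stab2* was lower in old cells of both kinds, from 820 to 302 CPM with *Xist* and from 623 to 462 CPM with Y-linked UMIs. *Gm20186* was higher in old cells of both kinds, from 1159 to 1479 CPM and from 1248 to 1401 CPM. Cells of each sex came from other mice, so sex and animal cannot be told apart. The immediate early and heat shock genes summed to 23823 and 28662 CPM in young and old *Xist* cells and to 27298 and 28732 CPM in the Y-linked cells, and their part in the difference was not tested.

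**Figure D2:**
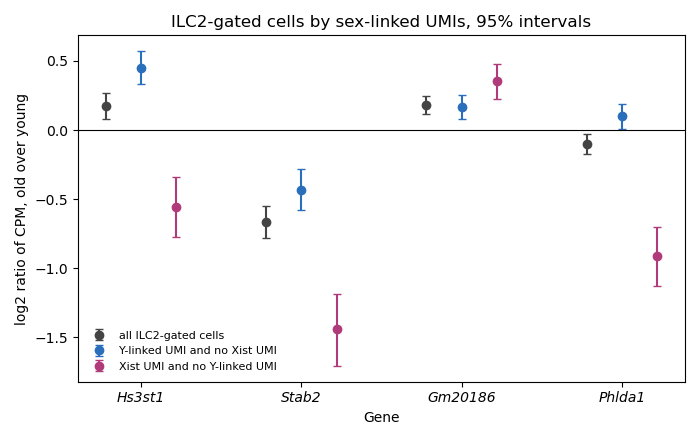
Log2 ratio of CPM, old over young, of each gene in all ILC2-gated cells (grey), in those that had a Y-linked UMI without *Xist* (blue) and in those that had *Xist* without one (magenta), with exact binomial 95% intervals. *Hs3st1* stood at 0.45 in cells with Y-linked UMIs and at -0.56 in cells with *Xist*, on opposite sides of 0.

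Many genes of the *Hs3st1* pathway were detected, while several members of its enzyme families had no UMI. Of the 22 other genes for heparan sulfate chain synthesis and modification, 6 reached 10 CPM in ILC2-gated cells of each library and 10 were under 1 CPM in each. These counts are a description only, since the share of all genes at such levels was not taken. The chain-building genes *Ext1* (12.8 and 12.0 CPM), *Ext2* (34.4 and 35.4 CPM) and *Extl3* (20.2 and 19.8 CPM) were all present. So were *Hs2st1* (38.7 and 25.2 CPM) and *Hs6st1* (40.3 and 28.2 CPM), which add sulfate at other positions. Of the other 3-O-sulfotransferases, *Hs3st3b1* had 12.1 and 13.8 CPM, and *Hs3st2*, *Hs3st3a1*, *Hs3st4*, *Hs3st5* and *Hs3st6* had no UMI in ILC2-gated cells. Of the 6 with at least 100 UMIs in ILC2-gated cells, none was highest there in the young library and 2 were in the old one. Of the 7597 genes, 7.94% (young) and 11.8% (old) were. The 2 were *Ext2* and *Hs2st1*. The 16 old endothelial cells, too few to be ranked, had more of both, at 81.5 and 48.9 CPM. The proteins that can carry such chains were led by *Srgn*, which encodes serglycin, at 1068 and 1226 CPM, and by *Sdc4* at 339 and 276 CPM, both higher in other classes. *Hspg2*, which encodes perlecan, had 25.8 and 24.6 CPM against 797 CPM in young endothelial cells. Of the old classes of at least 50 cells ILC2-gated cells had the most of it, while the 16 old endothelial cells had 571 CPM.

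*Stab1*, which encodes the other stabilin beside *Stab2*, had 16.8 CPM in ILC2-gated cells of young mice and 25.2 CPM in old, against 164 and 92.3 CPM in macrophages. The hyaluronan receptor gene *Cd44* had 275 and 213 CPM, with more in neutrophils. The hyaluronan synthase genes *Has1* and *Has2* had no UMI in ILC2-gated cells. Of the 10 other scavenger receptor genes, 2 in the young and 3 in the old library reached 10 CPM, again given without the share of all genes. One of the latter was *Marco*, whose 144 UMIs lay in 0.651% of the 307 old cells.

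For *Phlda1*, the related genes *Phlda2* and *Phlda3* stood at 3.46 and 3.86 CPM in young ILC2-gated cells, and at 2.40 and 3.60 CPM in old ones. None of 10 MAPK feedback genes was highest in ILC2-gated cells of either library, against 7.94% (young) and 11.8% (old) of the 7597 genes. Only 5 of the 10 had at least 100 UMIs in ILC2-gated cells, so nothing is read from that count. Their most abundant, *Dusp5*, had 284 and 321 CPM. Of 16 immediate early and heat shock genes, which respond to signals and also to tissue dissociation, 13 had at least 100 UMIs in ILC2-gated cells, and 4 of these were highest there in the young and 7 in the old library, against the same 7.94% and 11.8% of all genes. *Fosb* was among these with 4445 and 4704 CPM. *Hspa1a* stayed at 8.38 and 5.40 CPM.

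The genes whose levels over the 27 class-by-library points were most like those of a member were sought among the 7597 genes. All points of a library share its cells' handling, and ILC2-gated cells weigh on each value, so Pearson's r is also given without them. The other points still include the T cells with at least 2 ILC2 gate genes. These held 89.5% of the *Stab2* and 97.5% of the *Hs3st1* UMIs of young coreceptor-negative T cells, and their part in r was not tested. *Stab2* was most like *Il17rb* (r = 0.93, and 0.84 without), a gene of the gate, and then *Il5* (0.91 and 0.79), *Olfr1259* and *Mmp16*. *Gm20186* was most like *Xlr4a* and *Xlr4c* (0.90 and 0.88 for the former, 0.90 and 0.89 for the latter), near-identical genes between which reads may be split, and then *Gm26809*, *Gata3* (0.89 and 0.86) and *Tktl1*. *Phlda1* was most like *Nfkb1* (0.91 and 0.87), which encodes a subunit of NF-κB, and then *Spty2d1*, *Crtc3*, *Etv3* and *Tspan13*. *Hs3st1* was most like *Il9r* (0.84 and 0.73), the IL-9 receptor gene, and then *Pxdc1*, *Mns1*, *Lztfl1* and *Tnfrsf10b*.

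In the mm10 (GRCm38) genome *Gm20186* (ENSMUSG00000106874) lies at chr6:18845910-18848207 on the minus strand. It overlaps 1451 bases of *Gm26809*, a noncoding gene on the plus strand, and begins 372 bases from *Lsm8*, which is transcribed away from it. *Gm26809* had 59.4 CPM (young) and 84.6 CPM (old) in ILC2-gated cells against 0.652 and 0.741 CPM in proximal tubule cells. The strand setting of the counting is not given in the sources used here, so reads from the overlap cannot be told apart with certainty. *Lsm8*, a splicing factor gene, had 144 and 148 CPM in ILC2-gated cells and 31.6 and 28.7 CPM in proximal tubule cells. *Phlda1* (ENSMUSG00000020205) is at chr10:111506286-111508645 on the plus strand, and *Gm28592*, on the opposite strand inside it, had 1.20 and 2.40 CPM. *Stab2* (ENSMUSG00000035459) spans chr10:86841198-87008025 on the minus strand, and its counted antisense genes *Gm16268*, *Gm16280* and *Gm16271* had at most 2.13 CPM in young ILC2-gated cells and 3.0 CPM in old. *Hs3st1* (ENSMUSG00000051022) spans chr5:39613935-39755475 on the minus strand and overlaps no other annotated gene.

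The 250 bases before a start site were read from RefSeq promoter sequences of GRCm38.p6, which matched 2 of the 4 genes, *Hs3st1* and *Stab2*; *Gm20186* and *Phlda1* are named only. Since *Gata3* marks these cells, both strands were searched for the GATA core (GATA) and for longer forms that contain it, namely the form AGATAA, the form AGATAG, the form TGATAA and the form TGATAG. The *Stab2* window held 1 core, in capitals, and no longer form, and the *Hs3st1* window held neither. Of 32851 such windows, 53.6% held the core and 26.5% a longer form. The *Hs3st1* window lies inside the annotated span of the gene, and that of *Stab2* crosses the annotated end of its span. A match of letters is not a binding site, and its absence from this window says nothing of the factor.
*Stab2*, chr10:87007943-87008192, minus strand: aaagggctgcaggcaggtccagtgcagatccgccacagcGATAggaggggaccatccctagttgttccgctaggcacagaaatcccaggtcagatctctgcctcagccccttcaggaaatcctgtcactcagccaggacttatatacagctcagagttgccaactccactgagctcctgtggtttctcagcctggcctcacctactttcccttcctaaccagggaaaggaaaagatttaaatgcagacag
*Hs3st1*, chr5:39644632-39644881, minus strand: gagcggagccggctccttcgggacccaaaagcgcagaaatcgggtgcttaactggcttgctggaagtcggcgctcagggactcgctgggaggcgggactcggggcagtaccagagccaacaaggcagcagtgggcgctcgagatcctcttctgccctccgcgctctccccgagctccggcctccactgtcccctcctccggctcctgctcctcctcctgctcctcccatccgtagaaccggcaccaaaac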

How the data were processed

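Both deposited matrices hold raw UMI counts per gene and barcode, which the authors obtained with Cell Ranger (3.1.0 per the file headers) and mm10 from 10x Genomics 3′ v3.1 libraries. From these counts, CPM was computed by dividing a gene's UMIs, summed over the cells of a class, by all UMIs of those cells. The 4 genes and the gene lists were chosen with earlier results of these data known. Marker genes were listed first, and the number of markers that each gate needs was set after seeing their counts. Proximal tubule cells also needed at least 0.2% of their UMIs in their 6 markers. Doublets called by Scrublet in Scanpy 1.11.5 (332 young, 270 old) were not removed. Genes with at least 100 UMIs over ILC2-gated cells of both libraries were ranked, and a gene at 0 was set to 3 counts for a ratio. Likeness was Pearson's r of log2(CPM + 1) over classes of at least 50 cells. Genes named are the members, all genes of the lists and gates, and the 5 most like each member, of which 1 is not reported here. Genes that overlap a member were chosen by position. The splits of ILC2-gated cells by effector genes, cycling genes and depth were chosen after seeing the data. Clusters for an alternative used 2000 variable genes, 10 principal components and Leiden at a resolution of 0.8 in each library, and took the class of at least 50% of their gated cells, with the members left out of the clustering. Clusters with few gated cells got no class. Abundant genes, left out of the total in another alternative, were *Malat1* and those of hemoglobins, ribosomal proteins and mitochondria. Calculations used Python 3.11.15, NumPy 2.4.6, SciPy 1.17.1, pandas 2.3.3 and Matplotlib 3.10.9. Ranking and likeness were tested on simulated counts.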

Additional observations from a re-analysis of the deposited data

Results flagged for a closer look

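The age difference of *Hs3st1* ran in opposite directions in cells of the 2 sexes, with a log2 ratio of old over young of 0.45 (0.33 to 0.57) in ILC2-gated cells with Y-linked UMIs and -0.56 (-0.78 to -0.34) in those with *Xist*. For *Phlda1* the ratios were 0.10 (0.01 to 0.19) and -0.91 (-1.13 to -0.70). The first is close to 0 and its interval covers counting error only. Over all ILC2-gated cells the variance of *Phlda1* counts was 7.44 (young) and 8.43 (old) times the mean, so that direction is uncertain. The difference between the sexes was not tested, since each library pools its animals.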

How the results depend on the processing

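No paired analysis was possible because each age has 1 library. Removing called doublets, a limit of 10% mitochondrial UMIs and a minimum of 500 genes moved none of the levels, ratios between classes and age ratios of the 4 genes past their intervals. Over all alternatives, 57 of 80 log2 ratios of ILC2-gated cells to the next class stayed within their intervals. None of the 80 changed sign, with values from 1.57 to 7.79. The genes were chosen for leading ILC2s in these libraries, so the lack of a sign change is a description only. Of 40 age ratios, 29 stayed within their intervals, 8 moved and 3 changed sign. Except where the construction of an alternative shows it, the cause was not tested. The old values rest on 307 ILC2-gated cells and the young ones on 1348.

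The log2 ratio to the next class is given here by gene, young before old. With the mean of CPM over cells it was 2.66 for young *Hs3st1*, 3.14 and 7.43 for *Stab2* and 2.15 for young *Gm20186*. With classes taken from clusters it was 2.17 for old *Hs3st1*, 5.11 and 4.21 for *Stab2*, 4.07 for young *Gm20186*, and 3.41 and 2.79 for *Phlda1*. The next 3 alternatives were chosen after seeing the data. With ILC2-gated cells that met another gate kept, it was 1.95 and 2.26 for *Hs3st1*, 2.40 for young *Stab2*, 1.57 and 2.91 for *Gm20186*, and 1.97 and 2.66 for *Phlda1*. With T cells that had at least 2 ILC2 gate genes left out, it was 3.53 for young *Hs3st1*, 5.54 and 7.79 for *Stab2*, 3.40 for young *Gm20186* and 2.90 for young *Phlda1*. With classes of at least 20 cells, plasmacytoid dendritic cells came next for old *Hs3st1*, at 2.01.

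Levels in ILC2-gated cells moved as follows. With classes from clusters, young *Hs3st1* had 692 CPM, *Gm20186* 1349 and 1319 CPM, and young *Phlda1* 1224 CPM. With at least 3 genes of the gate, *Hs3st1* had 643 and 737 CPM, *Stab2* 682 and 463 CPM, young *Gm20186* 1275 CPM and young *Phlda1* 1221 CPM. With abundant genes left out of the total, which raises every level, *Hs3st1* had 866 and 979.5 CPM, *Stab2* 942 and 596 CPM, *Gm20186* 1748 and 1986 CPM, and *Phlda1* 1692 and 1582 CPM. With the mean over cells, young *Hs3st1* had 661 CPM, *Gm20186* 1288 CPM and *Phlda1* 1290.4 CPM. With cells that met another gate kept, chosen after seeing the data, *Hs3st1* had 478 and 508 CPM, *Stab2* 522 and 314 CPM, *Gm20186* 969.9 and 1038 CPM, and *Phlda1* 932 and 821 CPM.

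Shares of ILC2-gated cells with a UMI follow the depth. At 500 UMIs they were 26.8% and 26.4% for *Hs3st1*, 24.6% and 17.9% for *Stab2*, 35.7% and 42.0% for *Gm20186*, and 38.6% and 35.8% for *Phlda1*. At 2000 UMIs they were 61.7% and 60.5%, 63.2% and 43.9%, 69.2% and 70.9%, and 73.5% and 69.6%. Without thinning they were 80.3% and 75.9%, 83.1% and 66.4%, 80.3% and 84.0%, and 88.3% and 82.4%.

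The log2 ratio of old over young was 0.0287 for *Hs3st1* and -0.0327 for *Gm20186* with classes from clusters, the latter a change of sign. It was 0.10 for *Gm20186* and -0.18 for *Phlda1* with cells that met another gate kept, chosen after seeing the data. In cells with Y-linked UMIs it was 0.45 for *Hs3st1*, -0.43 for *Stab2* and, with the sign changed, 0.10 for *Phlda1*. In cells with *Xist* it was -0.56 for *Hs3st1*, a change of sign, -1.44 for *Stab2*, 0.35 for *Gm20186* and -0.91 for *Phlda1*.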

Other observations

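*Areg* had a log2 ratio of old over young of 1.0 (0.92 to 1.07) in ILC2-gated cells with Y-linked UMIs and -0.23 (-0.37 to -0.10) in those with *Xist*. *Il1rl1* was higher in old cells of both kinds, at 0.79 (0.67 to 0.91) and 0.27 (0.05 to 0.49).

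In B cells *Hs3st1* was higher in the old library, with a log2 ratio of 1.01 (0.59 to 1.43) from 76 young and 138 old UMIs.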
